A study of Mus musculus with 4 samples.

Results

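The neurotrophins, the ligands of the GDNF (glial cell line-derived neurotrophic factor) family and their receptors were followed in male mice at 12 months of age, in the hippocampus of the left side. Of 9 genes of these families chosen by name, 7 were represented by probe sets paired with that gene symbol alone, out of 8251 genes so represented: Bdnf, Ntrk2, Ntrk3, Gdnf, Pspn, Gfra1 and Gfra2. They had 9 probe sets, out of 12422 compared, because Gdnf and Gfra2 had 2 each. Ntf3 and Ngfr were not analysed here. RNA from 2 Tg2576 mice, called APPSw, and from 2 nontransgenic controls described as C57B6/SJL was hybridised to 4 oligonucleotide arrays. Tg2576 mice overexpress amyloid precursor protein carrying the Swedish mutation from a transgene driven by hamster prion protein gene sequence, and are used as a model of cerebral amyloid deposition. Tissue of 1 side was taken from each mouse, and nothing in the labels says whether the animals were littermates, so p-values measure only the spread between these 4 samples. The number of arrays limits the precision of every value below.

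Neurotrophins are secreted survival and plasticity factors. Brain-derived neurotrophic factor acts through the receptor tyrosine kinase TrkB (Ntrk2) and neurotrophin-3 mainly through TrkC (Ntrk3), while all neurotrophins also bind the low-affinity receptor p75 (Ngfr). In the hippocampus Bdnf is made chiefly by granule and pyramidal neurons, and it is needed for lasting synaptic strengthening. The GDNF family ligands (GDNF, neurturin, artemin and persephin) each bind a lipid-anchored co-receptor of the GFR alpha type, and the complex then engages the receptor tyrosine kinase RET. GDNF prefers GFR alpha 1 (Gfra1), neurturin prefers GFR alpha 2 (Gfra2), and persephin, the product of Pspn, uses GFR alpha 4.

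Among the 7 genes with probe sets the largest difference was that of Pspn, and Gdnf followed by 1 of its probe sets. By these probe sets Pspn and Gdnf had brighter signals in both APPSw mice than in both controls. Of the other GDNF family ligands, read from a list, Artn was dimmer in both APPSw mice and Nrtn had overlapping groups. Gfra1 was dimmer in both APPSw mice, and Bdnf, Ntrk3 and Gfra2 had overlapping groups. No probe set of the family passed the test over all probe sets. The sequences below are the 250 bases before the annotated transcription starts of the members whose groups did not overlap, the ones whose values are described at most length. They are RefSeq sequences of build GRCm38.p6, read 5′ to 3′ on the strand of the gene, and capitals mark any match to 1 of 5 searched motifs. Of the 7 genes with probe sets, RefSeq entries were used for Pspn (chr17:57000106-57000355, minus strand), for Gdnf (start 1 at chr15:7809798-7810047 and start 2 at chr15:7813477-7813726, plus strand) and for Gfra1 (chr19:58455399-58455648, minus strand).
Pspn start 1: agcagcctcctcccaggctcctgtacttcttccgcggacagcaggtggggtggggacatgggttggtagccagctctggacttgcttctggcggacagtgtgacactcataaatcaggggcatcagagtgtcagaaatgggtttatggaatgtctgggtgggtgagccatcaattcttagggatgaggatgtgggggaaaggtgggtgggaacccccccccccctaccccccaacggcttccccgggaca
Gdnf start 1: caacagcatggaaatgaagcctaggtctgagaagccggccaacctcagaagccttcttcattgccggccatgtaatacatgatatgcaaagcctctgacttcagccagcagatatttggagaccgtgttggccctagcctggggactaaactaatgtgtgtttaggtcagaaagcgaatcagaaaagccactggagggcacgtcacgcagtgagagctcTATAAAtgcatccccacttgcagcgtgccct
Gdnf start 2: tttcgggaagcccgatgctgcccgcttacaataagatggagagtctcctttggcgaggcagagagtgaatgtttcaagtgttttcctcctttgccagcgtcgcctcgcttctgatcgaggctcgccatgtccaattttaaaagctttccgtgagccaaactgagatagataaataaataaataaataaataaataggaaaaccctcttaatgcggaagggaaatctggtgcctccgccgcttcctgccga
Gfra1 start 1: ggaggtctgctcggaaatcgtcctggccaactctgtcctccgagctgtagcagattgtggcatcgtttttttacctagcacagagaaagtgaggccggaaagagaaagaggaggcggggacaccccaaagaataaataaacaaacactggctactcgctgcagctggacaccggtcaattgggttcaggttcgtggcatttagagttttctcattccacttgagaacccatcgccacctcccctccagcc

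The motifs searched on both strands were the cyclic AMP response element TGACGTCA, the GC box GGGCGG, the TATA box TATAAA, the E-box CACGTG and the AP-1 site TGANTCA, and no match overlapped another. The 4 windows held 1 match, a TATA box that begins 31 bases before Gdnf start 1. Among all 32851 promoter windows of this length, 12.4% held a TATA box, 32.7% a GC box, 6.75% an AP-1 site, 6.02% an E-box and 1.55% a cyclic AMP response element. The upstream GC content was 59.2% for Pspn, 50.8% and 46.8% for the Gdnf starts 1 and 2, and 52.4% for Gfra1, against a median of 52.4% over all windows. A match describes letters in a window, and the absence of one says nothing about the factor.

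The values below are MAS 5.0 signals, which are linear brightness units scaled per array to a target of 2500. A probe set pools several short probes, whose match to further transcripts was not examined. Signals of different probe sets are not comparable as amounts of RNA. A log2 difference is APPSw minus control, with limma's moderated standard error (SE), and its p was adjusted by the Benjamini-Hochberg method. Probe sets whose geometric mean signal over the 4 arrays was under 565 were left out of the main fit, which kept 7453 probe sets and 6 of the 9 of the family. The other 3 (Ntrk2, the dimmer Gdnf and the dimmer Gfra2 probe set) have their SE and p from the same fit over all 12422 probe sets. Adjusted p fell under 0.05 for 0 of the 7453 kept probe sets (background 0%) and for 0 of the 6 kept ones of the family. At an unadjusted p under 0.05 limma found 600 kept probe sets (8.05%), among them those of Pspn and Gdnf, both above 0 (4.72% of kept probe sets in that direction). In the fit over all probe sets 0 passed (0%) and 816 (6.57%) had an unadjusted p under 0.05. With 2 arrays per group, the smallest two-sided p an exact permutation test allows is 0.333.

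The array medians were 1033 and 1013 on APPSw arrays 1 and 2, and 926 and 988 on control arrays 1 and 2. Of 11 marker genes of hippocampal principal neurons kept by the filter, 0 lay above 0 and 11 below in APPSw mice, with a median log2 difference of -0.48, against 0.018 over all kept probe sets. Without control 1 that median was -0.19. APPSw 1 stood apart by markers of the choroid plexus, a tissue of the ventricles beside the hippocampus. Of 17 listed markers 7 were kept and none was at 0, all 7 were brightest in APPSw 1, and the median difference of 1.12 became 0.19 when APPSw 2 alone was set against the controls. Its defining gene Ttr had 83384 and 3236 in APPSw mice, against 8908 and 1896 in controls, and Cox8b and Igf2 had log2 differences of 0.73 and 1.12. Their probe sets below the filter differed by 1.42 for Cox8b and by -0.27, with overlapping groups, for Igf2. Where the family's groups did not overlap, the difference without APPSw 1 is given, alone or within the range over each array left out. In bulk tissue, fewer cells of a type and less RNA per cell cannot be told apart.

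**Figure D1:**
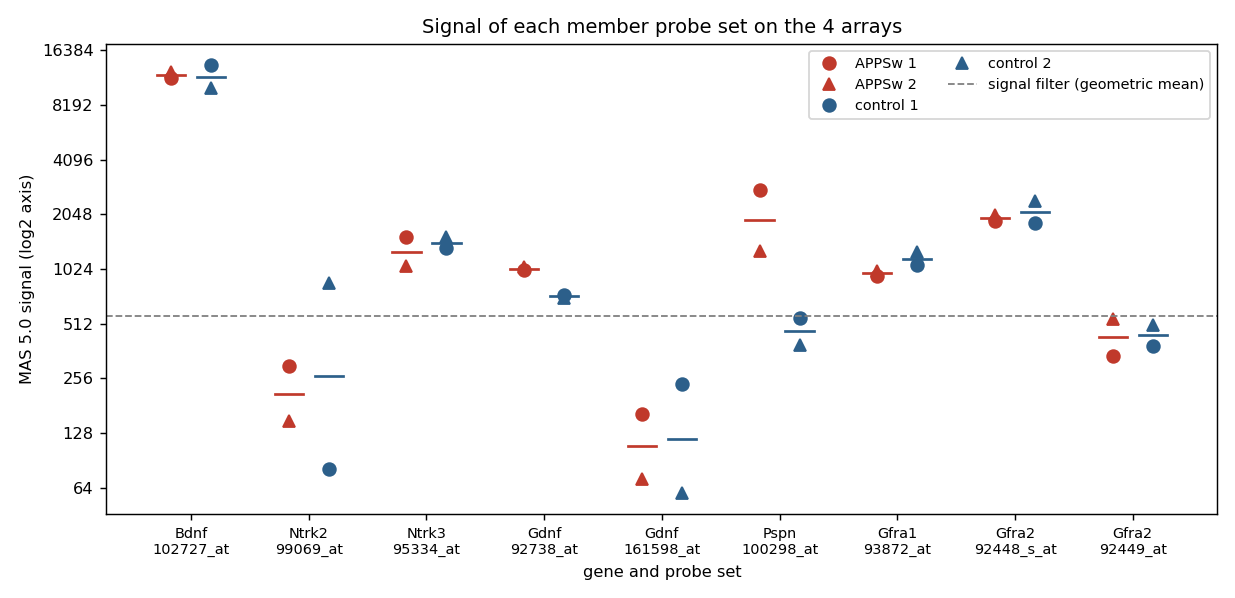
MAS 5.0 signal (log2 axis) of the 9 probe sets, with APPSw arrays in red on the left and control arrays in blue on the right of each pair, circles for array 1 and triangles for array 2, and bars at the geometric mean of each group. Pspn and the brighter Gdnf probe set have both APPSw points above both control points, Gfra1 has both below, and the dashed line is the filter at a geometric mean of 565.

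Bdnf, the neurotrophin that TrkB binds, had signals of 11552 and 12386 in APPSw mice, against 13502 and 10182 in controls. Both APPSw values lay between the control values, so the groups overlapped fully. The means were 11969 ± 590 (SD, n = 2) in APPSw mice and 11842 ± 2347 (SD, n = 2) in controls, a log2 difference of 0.03 (SE 0.21, limma adjusted p = 0.979). Its 95% interval ran from -0.48 to 0.54, so a change of either sign within these bounds was compatible with the values of these 4 arrays. The sign was not stable either: the difference was -0.17 without control 2 and 0.23 without control 1. The dimmer markers of principal neurons, the cells that make most hippocampal Bdnf, stood beside this value, and their part in it was not tested.

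Ntrk2, the gene of TrkB, was measured by a probe set below the filter. It had signals of 298 and 149 in APPSw mice, against 81.0 and 861 in controls. The control arrays differed 3.41 on the log2 scale in size, with control 2 highest and control 1 lowest of all 4, and the APPSw values lay between them. The log2 difference of -0.32 had an SE of 1.31 (limma without the filter, adjusted p = 0.962) and a 95% interval from -4.06 to 3.41, which holds no information on direction. TrkB has a full-length kinase form and truncated forms without the kinase, and the sources used here do not say which of them this probe set detects.

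Ntrk3, the gene of TrkC, had signals of 1538 and 1062 in APPSw mice, against 1337 and 1534 in controls. APPSw 1 was close to control 2 and APPSw 2 was the dimmest of the 4, so the groups overlapped. The log2 difference was -0.16 (SE 0.24, limma adjusted p = 0.858), with a 95% interval from -0.75 to 0.42. APPSw 2 alone set its sign, since leaving that array out gave 0.10 and leaving out APPSw 1 gave -0.43.

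Gdnf, a survival factor for midbrain dopamine neurons and motor neurons among others, had 2 probe sets. By the brighter one its signals were 1009 and 1046 in APPSw mice, against 736 and 713 in controls. The arrays of each group lay close together and the groups did not overlap. The means were 1027 ± 26.0 (SD, n = 2) in APPSw mice and 725 ± 16.7 (SD, n = 2) in controls, a factor of 1.42. The log2 difference was 0.50 (SE 0.17, 95% interval 0.09 to 0.92), with an unadjusted p of 0.025 and a limma adjusted p of 0.599. Leaving out each array in turn gave 0.48 to 0.53, so no single array set this difference. Among kept probe sets, 11.5% differed by at least as much in either direction.

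The dimmer Gdnf probe set gave no clear direction. Its signals were 164 and 71.7 in APPSw mice, against 238 and 60 in controls. The 2 control values enclosed both APPSw values, and the log2 difference was -0.14 (SE 0.87, limma without the filter, adjusted p = 0.976). The 95% interval, from -2.61 to 2.33, includes the value of the brighter probe set. At this brightness the 500 probe sets nearest in mean signal differed by a median factor of 1.70 between the APPSw arrays and of 1.75 between the control arrays, against 1.24 and 1.25 around the brighter probe set.

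Pspn encodes persephin, a ligand related to GDNF and neurturin that supports midbrain dopamine neurons and motor neurons in culture. Its probe set had signals of 2788 and 1289 in APPSw mice, against 549 and 393 in controls. Both APPSw values exceeded both control values, but they also differed from each other by 1.11 on the log2 scale, while the controls differed by 0.48. The means were 2039 ± 1060 (SD, n = 2) in APPSw mice and 471 ± 110 (SD, n = 2) in controls. The log2 difference was 2.03 (SE 0.40, 95% interval 1.05 to 3.01), a factor of 4.08, with an unadjusted p of 0.0025 and a limma adjusted p of 0.599.

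Both control signals lay under the filter's 565, so the probe set of Pspn was kept through its APPSw values alone and had to differ to enter the fit. Without the filter its limma adjusted p was 0.652. Without APPSw 1 the log2 difference was 1.47 and without APPSw 2 it was 2.59. The brighter of the APPSw arrays was the one with the higher choroid plexus markers, whose summed signal over 7 genes was 141387 and 20293 in APPSw arrays 1 and 2, against 25932 and 16646 in control arrays 1 and 2. Most of that sum in APPSw 1 was Ttr, and in APPSw 2 the markers Igf2 (9464, against 7895 and 7724 in controls) and Cox8b (2038, against 1780 and 1283 in controls) exceeded both controls, while the other 5 did not. The part of these markers in the Pspn value was not tested.

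Pspn is a very short gene, and in RefSeq its end overlaps that of Alkbh7, with Clpp and Gtf2f1 as the next genes on either side. These neighbours were chosen after their values were seen. Gtf2f1, a general transcription factor subunit, had signals of 3313 and 3712 in APPSw mice, against 3571 and 3025 in controls, a log2 difference of 0.09 (SE 0.19). Clpp, a mitochondrial protease subunit, had 4678 and 5758 in APPSw mice, against 5805 and 4684 in controls, a log2 difference of -0.0068 (SE 0.21). Both genes had overlapping groups. Alkbh7 was not analysed here.

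**Figure D2:**
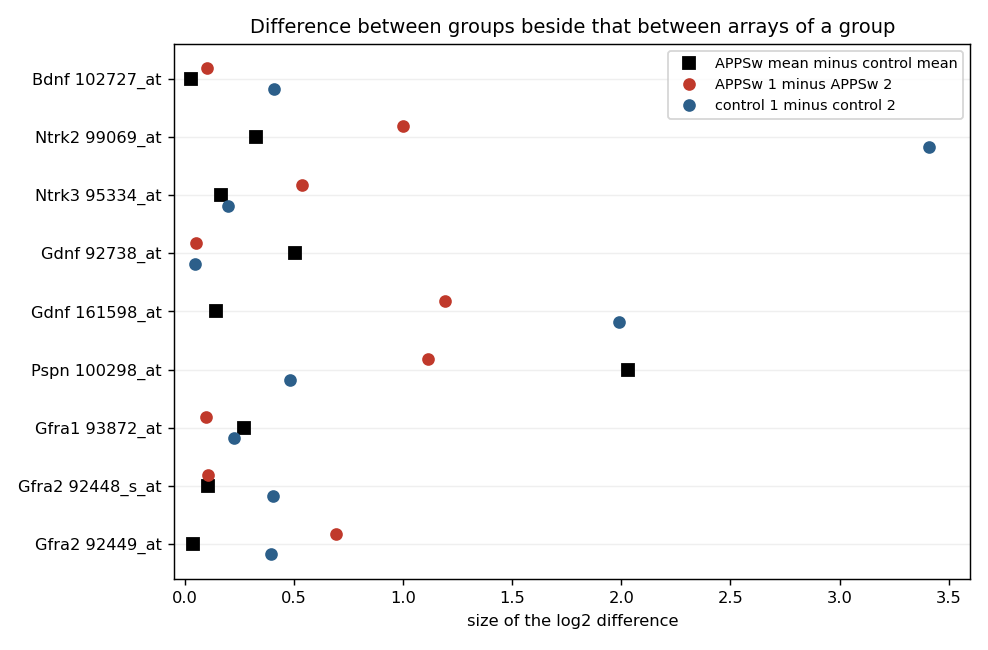
Size of the log2 difference between group means (black squares), between the APPSw arrays (red) and between the control arrays (blue) for each of the 9 probe sets. For Pspn, the brighter Gdnf probe set and Gfra1 the group difference exceeds both differences between arrays of a group, by little for Gfra1 (0.27 between groups, 0.10 within APPSw and 0.22 within controls).

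The co-receptor gene Gfra1 had signals of 938 and 1002 in APPSw mice, against 1083 and 1263 in controls. Both APPSw arrays were dimmer than both controls, and the gap between the groups was smaller than that between the control arrays. The means were 970 ± 45.3 (SD, n = 2) in APPSw mice and 1173 ± 128 (SD, n = 2) in controls. The log2 difference of -0.27 (SE 0.18, 95% interval -0.72 to 0.18) did not pass the test, with a limma adjusted p of 0.679, and 35.4% of kept probe sets differed by at least as much. With each array left out it lay between -0.38 and -0.16, and without APPSw 1 it was -0.22. Its sign could not change in these fits, because the groups did not overlap.

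Gfra2, the co-receptor that neurturin prefers, had 2 probe sets with overlapping groups. The brighter one had signals of 1889 and 2030 in APPSw mice, against 1829 and 2419 in controls. Its log2 difference was -0.10 (SE 0.21, limma adjusted p = 0.901), and the control values enclosed those of APPSw mice. The dimmer one had 339 and 547 in APPSw mice, against 385 and 507 in controls, so that APPSw mice held both the highest and the lowest value. Its log2 difference was -0.04 (SE 0.34, limma without the filter, adjusted p = 0.985).

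By role, the 3 ligands kept by the filter (Bdnf, Gdnf, Pspn) lay above 0 and the 3 receptors kept (Ntrk3, Gfra1, Gfra2) below 0, with medians of 0.50 and -0.16. Each group's sign rests partly on values near 0, since Bdnf was 0.03 and changed sign with an array left out, as did Ntrk3 and Gfra2. In the 4 kept genes of the families read from a list the signs did not follow this split. There the ligand genes Artn (-0.87) and Nrtn (-0.03) lay below 0 and the co-receptor gene Gfra3 (0.03) above 0. Ncam1 (-0.11 by its brightest probe set) lay below 0. Nrtn and Gfra3 were near 0 with overlapping groups, and Artn, kept through its control values, had to differ to enter the fit. These genes therefore cannot decide whether the split holds. Of the 6 kept probe sets 3 had groups that did not overlap, beside 41.2% of all kept probe sets. Of all 9 probe sets the same 3 did not overlap, beside 39.3% over the whole table. A share of this size is that of the table at large, and Pspn entered the fit through the values that set it apart.

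**Figure D3:**
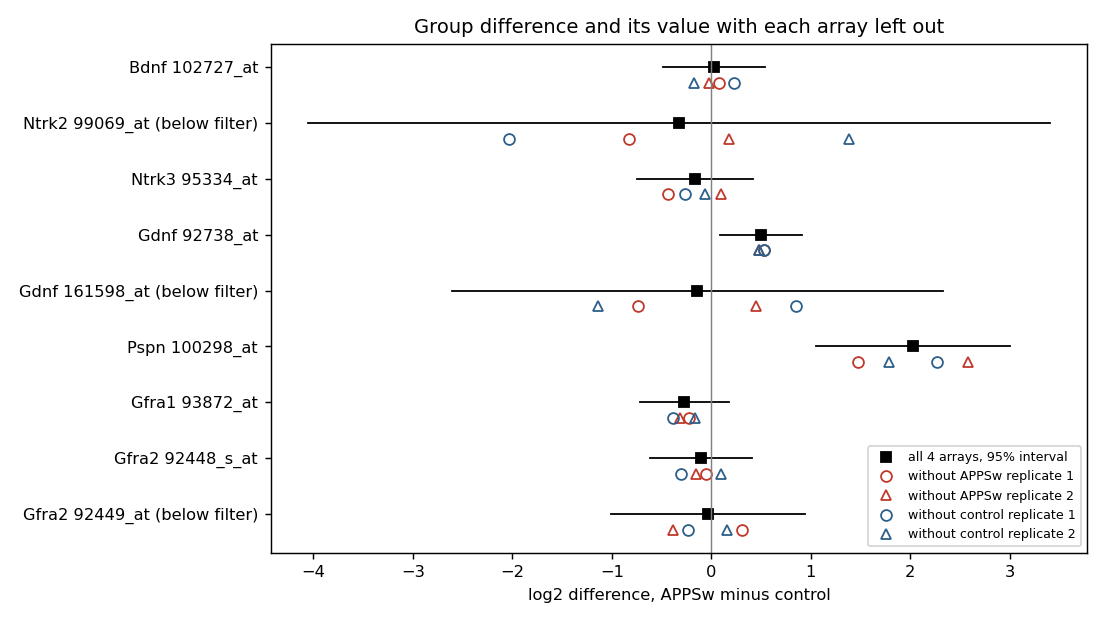
Log2 difference, APPSw minus control, with all 4 arrays (black squares with 95% intervals) and with each array left out (open symbols, red for APPSw and blue for control arrays, circles for array 1 and triangles for array 2). Pspn (1.47 to 2.59) and the brighter Gdnf probe set (0.48 to 0.53) stay above 0 and Gfra1 (-0.38 to -0.16) below 0, as groups that do not overlap must. The other 6 probe sets have open symbols on both sides of 0.

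The remaining genes of the families were read from a list. Of its 11 genes 5 had probe sets and 4 were kept, of which 1 lay above 0 and 3 below, with 0 past the adjusted threshold and 0 at an unadjusted p under 0.05 (background 8.05%). Artn, the gene of artemin, had signals of 717 and 340 in APPSw mice, against 774 and 1052 in controls, a log2 difference of -0.87 (SE 0.38, limma adjusted p = 0.612). Its groups did not overlap, although APPSw 1 was near control 1. The APPSw arrays differed by 1.075 on the log2 scale, more than the groups did, with APPSw 2 the dimmer. Its sign was opposite to that of Pspn and of the brighter Gdnf probe set. The mean of its APPSw signals (529) lay under the filter's 565, and that of its control signals (913) lay above it. The probe set of Artn was thus kept through its control values and, like that of Pspn, had to differ to enter the fit. Nrtn, the gene of neurturin, had 2325 and 1988 in APPSw mice, against 1997 and 2421 in controls, a log2 difference of -0.03 (SE 0.20) with overlapping groups. Gfra3, the co-receptor that artemin prefers, had 667 and 620 in APPSw mice, against 677 and 584 in controls, a difference of 0.03 (SE 0.18).

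Ret, the shared signalling receptor of the family, was below the filter on every array. Its signals were 53.7 and 57.5 in APPSw mice, against 36.9 and 60 in controls, a log2 difference of 0.24 (SE 0.32, limma without the filter, adjusted p = 0.874). Ncam1, the neural cell adhesion molecule that can bind GDNF with GFR alpha 1 where RET is lacking, had 13011 and 12549 in APPSw mice by its brightest probe set, against 13991 and 13594 in controls, a difference of -0.11 (SE 0.17). Its other kept probe set differed by 0.37 (SE 0.18) and the dim one by 0.26 (SE 0.24), so its probe sets did not share a sign. The genes of neurotrophin-4, GFR alpha 4 and sortilin were not analysed here, so the usual co-receptor of persephin has no value beside Pspn.

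Genes that carry the receptor signal showed no common direction. Of 45 listed adaptors, kinases and GTPases, 23 were kept, with 12 above 0 and 11 below and a median of 0.0052, and 0 had an unadjusted p under 0.05. Gab1, a docking protein, had signals of 2471 and 1512 in APPSw mice, against 2574 and 3182 in controls, a log2 difference of -0.57 (SE 0.28), and its second probe set gave -0.32. Sos2, a Ras activator, differed by 0.34 (SE 0.17), Plcg1, the phospholipase that Trk receptors recruit, by 0.30 (SE 0.18) and the docking protein Dok2 by -0.38 (SE 0.23). None passed, with limma adjusted p between 0.620 and 0.655.

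Among genes of p75 signalling 12 of 22 were kept, 7 above 0 and 5 below, with a median of 0.03, and 1 of the 12 had an unadjusted p under 0.05, a share close to the 8.05% of all kept probe sets. That gene was Rhoa, the GTPase that p75 can activate, with signals of 7166 and 7322 in APPSw mice, against 4831 and 4014 in controls. Its log2 difference was 0.72 (SE 0.18, limma adjusted p = 0.599) by this probe set, but 0.16 and -0.0090 by its other kept ones. The stress kinase genes Mapk8 and Mapk9 differed by 0.39 (SE 0.18) and -0.69 (SE 0.33), and a dimmer Mapk8 probe set by -0.48. Bcl10, an adaptor of NF-kappa-B signalling, differed by 0.32 (SE 0.31).

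Proneurotrophins are cut to mature factors by furin, proprotein convertases and plasmin. Of 23 genes of processing and sorting 12 were kept, 5 above 0 and 7 below, with a median of -0.06, and 0 had an unadjusted p under 0.05. Furin had signals of 3944 and 4296 in APPSw mice, against 3697 and 2865 in controls, a log2 difference of 0.34 (SE 0.20). Plg, the gene of plasminogen, differed by 0.54 (SE 0.23) and by 0.64 in its dimmer probe set, and Pcsk6, a convertase, by -0.35 (SE 0.21). Sorl1, a sorting receptor related to sortilin, had 1180 and 1719 in APPSw mice, against 2144 and 1939 in controls, a difference of -0.52 (SE 0.23, limma adjusted p = 0.612). Groups did not overlap for 4 genes above and 3 below 0 in this list, beside 22.2% and 19% of all kept probe sets.

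Regulators of the Bdnf gene lay above 0 more often than below it, with 11 of 14 above and a median of 0.18, against 52.7% above 0 and a median of 0.018 over all kept probe sets. Most of these 11 had overlapping groups. Groups did not overlap for 4 genes above and 2 below 0, beside 22.2% and 19% of all kept probe sets. In APPSw 1 the median was 0.19 and in APPSw 2 it was 0.07. Mef2c, an activity-dependent transcription factor, had signals of 4234 and 5653 in APPSw mice, against 2363 and 2799 in controls, a log2 difference of 0.93 (SE 0.22, limma adjusted p = 0.599). Its other probe sets differed by 0.51, 0.65 and -0.06. Rest, the repressor of neuronal genes that binds a silencer in Bdnf, had 962 and 790 in APPSw mice, against 566 and 619 in controls, a difference of 0.56 (SE 0.19, limma adjusted p = 0.605). Mef2c and Rest were the 2 genes of the 14 with an unadjusted p under 0.05, both above 0, beside 4.72% of all kept probe sets in that direction. Camk2b, a calcium-activated kinase subunit, differed by -0.28 (SE 0.17), and Bhlhe40, a repressor reported to bind a Bdnf promoter, by -0.25 (SE 0.17). Mef2c also belongs to the neocortex markers and is itself counted in their values. Of these markers 2 (Mef2c and Fezf2, the latter at 0.87) had groups that did not overlap, beside 22.2% of all kept probe sets in that direction. In all, 5 of 5 kept lay above 0 with a median of 0.34. That median was 0.14 without control 1, 0.76 without control 2 and 0.19 without APPSw 2, and the markers' part in the Mef2c value was not tested.

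Of 27 genes induced by activity or TrkB signalling 18 were kept, 9 above 0 and 9 below, with a median of -0.02, and 2 had an unadjusted p under 0.05, both below 0 (background 3.33% for that direction). Dusp6, a phosphatase that limits ERK and is induced by it, had signals of 4687 and 4581 in APPSw mice, against 6887 and 7435 in controls. Its groups lay far apart against their spread, with a log2 difference of -0.63 (SE 0.17, limma adjusted p = 0.599), and its dimmer probe set gave -0.31. Egr1, an immediate early transcription factor, had 4184 and 3600 in APPSw mice, against 5559 and 8358 in controls, a difference of -0.81 (SE 0.25, limma adjusted p = 0.599). Its probe set below the filter differed by 1.20 in the opposite direction. Fosb and Spry4, an inhibitor of growth factor signalling, differed by 0.36 (SE 0.23) and 0.39 (SE 0.26). The signs of these induced genes were thus mixed while Bdnf itself had overlapping groups.

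**Figure D4:**
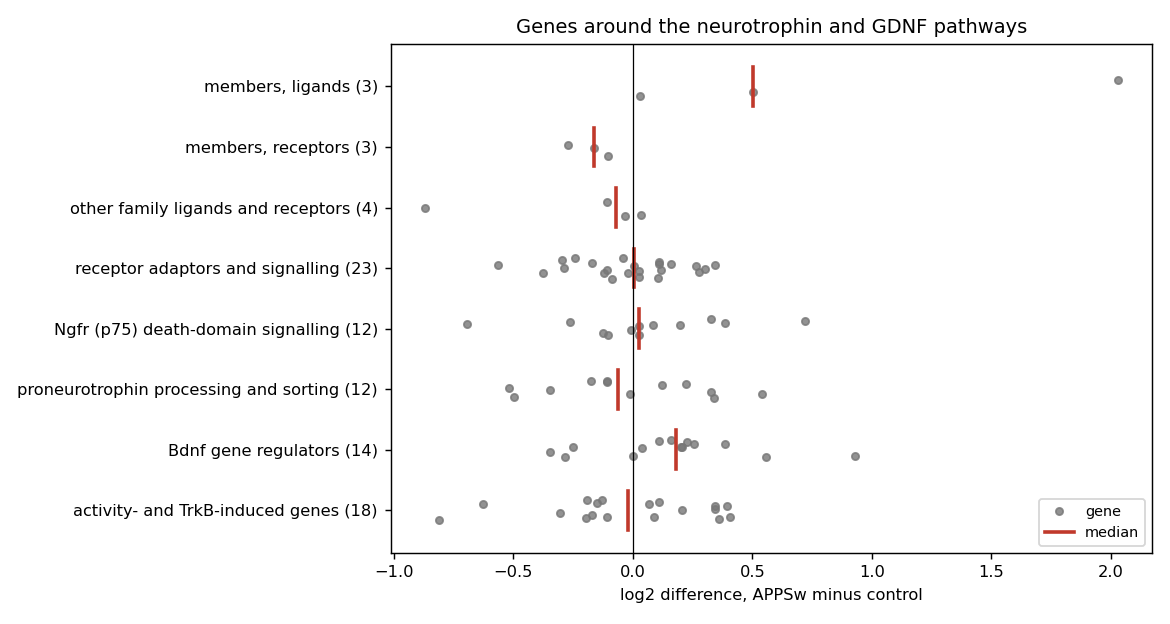
Log2 difference, APPSw minus control, of each kept gene (grey points, brightest kept probe set, number of genes in brackets) with the list's median (red bar). The medians of the 6 lists of other genes lie between -0.07 and 0.18, and Pspn at 2.03 is the farthest point from 0.

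Markers of other cells and regions were read beside these values. Markers of meninges and fibroblasts lay above 0 in 7 of 7 kept genes with a median of 0.57, Col1a1 at 0.57 and Mgp at 0.68 among them, and the median was 0.24 without APPSw 1. Oligodendrocyte markers lay below 0 in 7 of 7 with a median of -0.28, among them Ugt8a at -0.63 and Mal at -0.29, and the median was -0.09 without APPSw 2. Medians were -0.14 over 9 astrocyte genes (Slc1a2 -0.41, Glul 0.53 and 0.33 by its probe sets, and Gfap -0.24 and -0.80 by its probe sets), 0.11 over 8 microglial genes (6 above 0, with the smallest p for the 2 below, C1qc at -0.62 and Csf1r at -0.48, and Csf1r at 0.64 by its other kept probe set), 0.04 over 11 interneuron genes (Sst -0.40, Slc32a1 0.27), -0.0011 over 7 endothelial and mural genes (Pdgfrb -0.72, and Flt1 -0.19 and 0.82 by its probe sets) and -0.07 over 6 genes of striatum and thalamus (Penk -0.22 and, by its other kept probe set, 0.66; Tcf7l2 -0.15 and, by a dimmer one, 0.37). Mean APPSw signals of Ugt8a (530) and Pdgfrb (463) lay under the filter's 565. Both probe sets were thus kept through their control values and had to differ to enter the fit. The labelled tissue had bright signals for the inhibitory marker Gad1, at 17214 and 19189 in APPSw mice and 19342 and 20825 in controls. The list of basal forebrain cholinergic neurons, which project to the hippocampus and carry p75, had probe sets for 3 of 7 genes and all were below the filter. These 3 were brighter in both APPSw mice than in both controls, with log2 differences from 0.49 to 1.25. Their signals reached at most 122, and limma without the filter gave adjusted p from 0.65 to 0.77. Groups did not overlap in 39.3% of all probe sets, and probe sets left out by the filter had a median difference of 0.21. Summed signals of principal neuron markers were 54863 and 50485 in APPSw mice, against 78290 and 65866 in controls, and Spock1 and Bok differed by -0.71 and -0.78. The part of any of these markers in the values of the family was not tested.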

How the data were processed

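Per the labels, the authors computed signals in MAS 5.0 with a scaling target of 2500; the deposited intensities are on a linear scale. The sources used here give no background settings, scanner, labelling kit or scan batches. From 12488 probe sets, 66 manufacturer's controls were left out. The platform annotation pairs 10833 with 1 gene symbol, 396 with several and 1193 with none, and all gene identifiers of the family's 9 probe sets were found in RefSeq. APPSw and control arrays were set against each other on log2 intensity in limma 3.58.1 under R 4.3.3 (lmFit, eBayes, two-sided, Benjamini-Hochberg, threshold 0.05), after a filter at the 40th percentile of mean log2 signal, with 2 residual and 3.70 prior degrees of freedom (1.75 without the filter). The steps were tested on simulated data. A gene in a list is its brightest kept probe set.

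The members, lists, tests and alternatives were chosen with earlier results of these data known. Named are all probe sets of the families, up to 4 genes per other pathway list and up to 2 per marker list by smallest unadjusted p, and Gad1, Ttr and Gfap as defining markers. Alternatives were leaving out each array (its lone partner then being assumed to vary as the other group does), blocking on replicate number, an intensity trend for the prior variance, quantile normalization, a pseudocount or a floor (250 each), and filters at no or the 60th percentile. Same-numbered arrays did not deviate together (correlation -0.02 over 7453 probe sets), and 2 pairs do not establish pairing.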

Additional observations from a re-analysis of the deposited data

How the results depend on the processing

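The number of probe sets past the adjusted threshold was 0 under every alternative run, both overall and in the family, and the number at an unadjusted p under 0.05 lay between 402 (without control 2) and 816 (no filter), against 600. Pspn, the brighter Gdnf probe set and Gfra1 kept their direction in all 10 alternatives that tested them. Most of these alternatives could not have changed it. The groups did not overlap, so leaving out an array, a floor or a pseudocount keeps the sign. The block, the trend and the fit without the filter return the same difference. Pspn ranged from 1.47 to 2.59 with limma adjusted p from 0.312 to 0.749, Gdnf from 0.39 to 0.53 and Gfra1 from -0.38 to -0.16; the filter at the 60th percentile, a signal of 1549, removed all 3. The other 6 probe sets changed sign with an array left out. Their ranges over the 4 such fits were -0.17 to 0.23 for Bdnf, -2.03 to 1.38 for Ntrk2, -0.43 to 0.10 for Ntrk3, -1.14 to 0.85 for the dimmer Gdnf probe set, -0.30 to 0.10 for the brighter Gfra2 probe set and -0.38 to 0.31 for the dimmer one. With the replicate number as a block 559 probe sets had an unadjusted p under 0.05 and the adjusted p was 0.383 for Pspn and 0.664 for Gdnf, so the block changed no call.

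List medians moved by more than the spread between arrays in some settings. With no filter, they were 0.046 for adaptors and signalling, -0.18 for processing and sorting and -0.11 for activity-induced genes, and with the stricter filter -0.11 for the last of these; fewer or more genes enter by construction. With each array left out the medians ranged from -0.049 to 0.017 for adaptors, -0.052 to 0.16 for p75 signalling, -0.078 to 0.075 for processing and 0.071 to 0.22 for Bdnf regulators; the cause was not tested.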
